A study of Arabidopsis thaliana with 17 samples.

Results

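Plasma membrane intrinsic proteins (PIPs) are the water channels of the plant plasma membrane, and 10 of their genes were followed in roots of Arabidopsis thaliana: 5 of the PIP1 subgroup and 5 of the PIP2 subgroup, chosen by locus ID. All 10 had rows in both tables, out of 37336 features. PIPs assemble as tetramers and carry most of the water that crosses root cell membranes. PIP2 channels move water strongly, while PIP1 channels generally reach the plasma membrane together with PIP2 partners. In Arabidopsis roots, auxin lowers the transcripts of most PIPs, and water flow set by PIPs is needed for lateral roots to emerge through the overlying tissue.

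The study concerns the transcription factor subunit NF-YA2 and the long non-coding RNA BAMBOO. Whole roots of plants aged 14 days were compared, grown with mock treatment on solid half-strength MS medium with sucrose: the line bamboo (2 libraries, numbered 2 and 3) and a pair of wild-type sets, Col-0 and Col-0-b (3 libraries each). Both wild-type sets carry the genotype label Col-0. The design text calls bamboo a mutant, its table is named with the letters KD, often short for knock-down, and neither says how BAMBOO was altered. The level of BAMBOO itself was not analysed here. The wild-type columns of the bamboo table are named only WT and were read as Col-0-b, the set listed beside bamboo. Nothing in the labels says whether libraries came from separate plantings, so p-values measure the spread between these libraries, which may be technical. In bulk roots, fewer cells of a type and less RNA per cell cannot be told apart.

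Depth ran from 13637179 to 24333119 reads a library. Root markers (10 genes, among them SHR, SCR and CASP1) summed to 387 and 389 CPM in bamboo, 366 to 394 in Col-0 and 365 to 387 in Col-0-b, where CPM are reads scaled to a library total of 1000000. Shoot markers (9 photosynthesis genes) summed to 108 and 116 CPM in bamboo, 66 to 76.6 in Col-0 and 162, 87.7 and 77.6 in Col-0-b replicates 1, 2 and 3. All 10 root markers and 7 of the 9 shoot markers had reads in each of the 8 libraries. Of 6 stele and endodermis markers, 5 had positive and 1 a negative fold change in bamboo. The negative one was called: SUC2, a phloem sucrose transporter, had 1358 and 1424 normalized counts in bamboo, against 2065, 1852 and 2116 in Col-0-b (limma adjusted p = 0.023). The endodermal genes MYB36 (log2 fold change 0.30) and CASP1 (0.21) lay above all Col-0-b libraries with an unadjusted p under 0.05 and were not called, and the phloem regulator APL was at 0.07. Of the 10 root markers, which include MYB36 and CASP1, 4 had positive and 6 negative fold changes in bamboo, and none was called. In normalized counts RHD6 (log2 fold change -0.38) and SHR (-0.19) lay below all Col-0-b libraries, while SCR (-0.13) overlapped them. RHD6 also passed the unadjusted threshold. The even root sum thus hides single markers that differed both ways. One library stood apart over all genes: on the first principal component of the bamboo table (44.7% of the variance), the scores were -34.7 for bamboo replicate 2, -6.45 for bamboo replicate 3 and 8.56 to 21.9 for Col-0-b. Results that rest on bamboo are therefore also given for each of its libraries.

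The PIP1 genes were PIP1A (PIP1;1, AT3G61430), PIP1B (PIP1;2, AT2G45960), PIP1C (PIP1;3, AT1G01620), PIP1D (PIP1;5, AT4G23400) and PIP1E (PIP1;4, AT4G00430). The PIP2 genes were PIP2A (PIP2;1, AT3G53420), PIP2B (PIP2;2, AT2G37170), PIP2C (PIP2;3, AT2G37180), PIP2F (PIP2;4, AT5G60660) and PIP3A (PIP2;7, AT4G35100). The letter names are RefSeq synonyms and are used from here on. PIP2B and PIP2C are direct neighbours among protein-coding genes in the RefSeq table and near-identical copies, so reads could be split between them, and their separate values are uncertain. No member overlapped another annotated gene in that table. Reads per member ran from 1206 (PIP1E in Col-0 replicate 3) to 43385 (PIP2A in bamboo replicate 2). At the lowest of these, counting error alone was 2.88%. Exon lengths were not used here, so no member was ranked above another by level.

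No difference in PIP transcripts was detected between bamboo and Col-0-b roots, and the bamboo libraries differed more from each other than their mean did from the wild type. The 10 members summed to 169617 and 137812 normalized counts (reads divided by the authors' size factor) in bamboo, against 151743, 146525 and 150389 in Col-0-b. The bamboo libraries thus lay on either side of all 3 Col-0-b libraries. Bamboo over Col-0-b was 1.03 for the mean sum. Without bamboo replicate 2 it was 0.921, and without bamboo replicate 3 it was 1.13.

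None of the 10 members was called in bamboo against Col-0-b (limma on log2(normalized count + 1), Benjamini-Hochberg adjusted over 20274 tested genes, threshold 0.05), in a comparison where 0.133% of tested genes were called. At an unadjusted p under 0.05 there were also 0 members, against 16.8% of tested genes. edgeR and DESeq2 on the recovered reads likewise called 0. Positive log2 fold changes were found for 8 members and negative ones for 2, and the median was 0.08, against 0.00 over all tested genes. This lean depended on the bamboo library. Without bamboo replicate 2, 3 members were positive and the median was -0.09, and without bamboo replicate 3, 9 were positive and it was 0.20. The 95% intervals of the 10 members together spanned 0.822-fold to 1.32-fold, so a 1.5-fold difference lay outside each of them. In normalized counts no member had both bamboo libraries above, or both below, all Col-0-b libraries, which 17.1% and 17.5% of tested genes had.

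**Figure D1:**
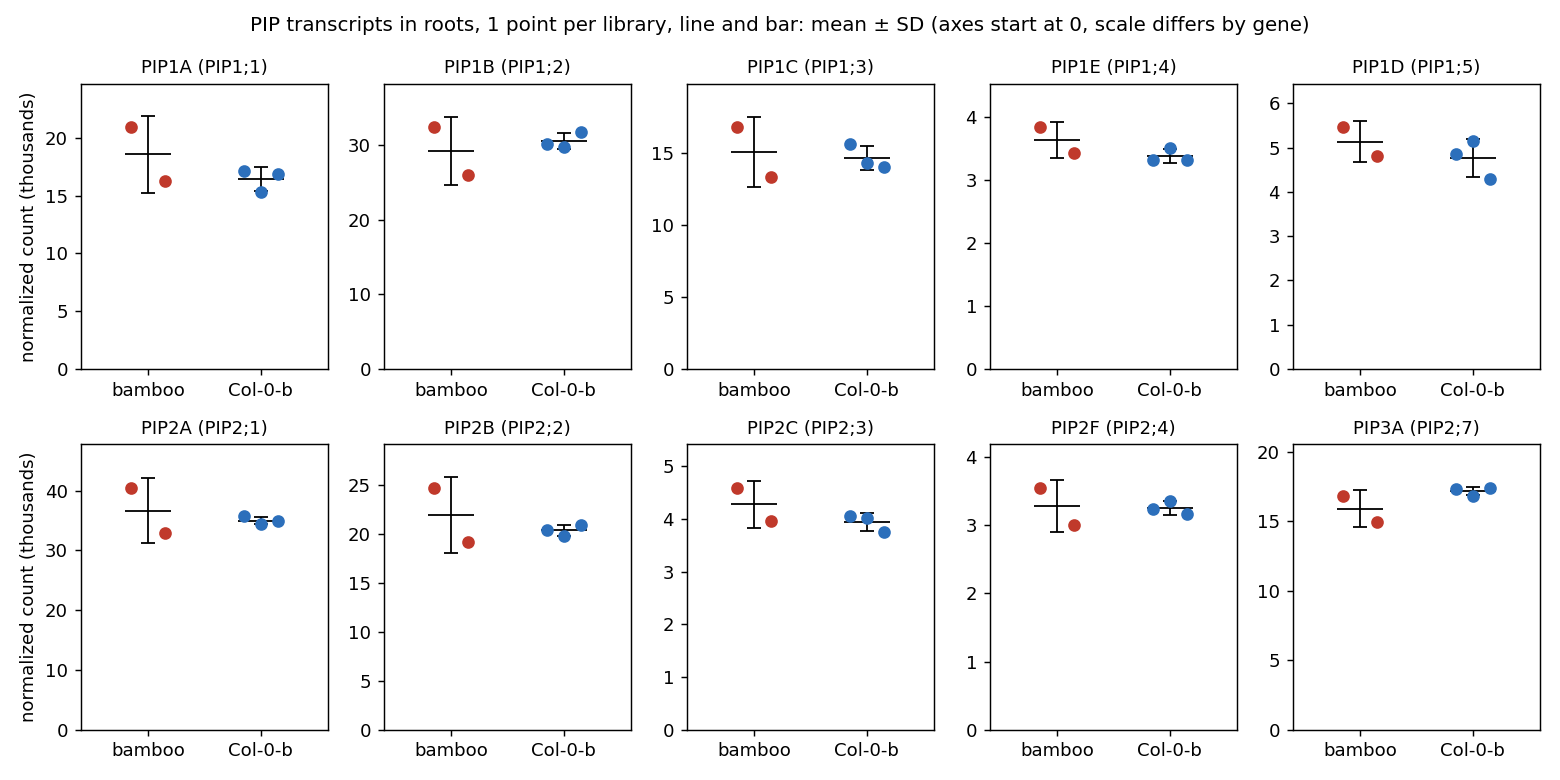
Normalized counts (y axis, starting at 0) of the 10 PIP genes in bamboo and Col-0-b roots, with 1 point per library in the order of the labels' numbers and the mean ± SD as a line with bars. In every panel the left bamboo point (replicate 2) is above the right one (replicate 3), and the points of both genotypes overlap.

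Within PIP1, the largest fold change was that of PIP1A. It had 20924 and 16238 normalized counts in bamboo replicates 2 and 3, against 17152, 15282 and 16906 in Col-0-b. Bamboo replicate 2 was the highest of the 5 libraries, while replicate 3 lay among the wild types. Bamboo exceeded Col-0-b by 0.17 on the log2 scale (95% interval -0.06 to 0.40, limma adjusted p = 0.442). With bamboo replicate 3 left out, the difference was 0.35 and passed the threshold (adjusted p = 0.029), in a setting that called 9.66% of all genes. With bamboo replicate 2 left out, it was -0.02.

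PIP1B, which in Arabidopsis contributes to root and rosette water transport, had 32445 and 26010 normalized counts in bamboo, against 30120, 29827 and 31788 in Col-0-b. It was highest in one bamboo library and lowest in the other. Means were 29228 ± 4550 in the 2 bamboo libraries and 30578 ± 1058 in the 3 of Col-0-b (± SD), a log2 difference of -0.07 with an SE of 0.10 (limma adjusted p = 0.736). PIP1C showed the same arrangement, with 16772 and 13340 in bamboo and 15587, 14317 and 13973 in Col-0-b (log2 difference 0.03 with an SE of 0.10, adjusted p = 0.896).

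PIP1E, which also conducts hydrogen peroxide in Arabidopsis, and PIP1D are the PIP1 genes with the fewest reads here. PIP1E had 3846 and 3433 normalized counts in bamboo, against 3324, 3516 and 3319 in Col-0-b. PIP1D had 5463 and 4805 in bamboo, against 4849, 5144 and 4288 in Col-0-b. In both genes the higher bamboo library exceeded all wild types and the other lay within their range. Log2 fold changes were 0.10 (SE 0.08, limma adjusted p = 0.524) for PIP1E and 0.11 (SE 0.09, adjusted p = 0.565) for PIP1D. Both stayed positive with either one of the bamboo libraries left out.

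Among PIP2 genes, PIP2A is the isoform tied to lateral root emergence and to guard cell closure. It had 40438 and 32825 normalized counts in bamboo, against 35691, 34402 and 34854 in Col-0-b. Means were 36631 ± 5383 in the 2 bamboo libraries and 34982 ± 654 in the 3 of Col-0-b (± SD), so the wild-type libraries were close together and the bamboo libraries were on either side of them. The difference was 0.06 on the log2 scale (95% interval -0.14 to 0.26, limma adjusted p = 0.792). It was 0.21 without bamboo replicate 3 and -0.09 without bamboo replicate 2.

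PIP2B, needed for full water permeability of root cortex cells, had 24752 and 19229 normalized counts in bamboo, against 20423, 19853 and 20957 in Col-0-b. Its neighbour PIP2C, first isolated as the desiccation-responsive gene RD28, had 4592 and 3967 in bamboo, against 4064, 4028 and 3752 in Col-0-b. For each gene bamboo replicate 2 was above all wild-type libraries, while replicate 3 was below them for PIP2B and within their range for PIP2C. Log2 fold changes were 0.10 (SE 0.10, limma adjusted p = 0.657) for PIP2B and 0.11 (SE 0.08, adjusted p = 0.507) for PIP2C. Taken as 1 feature, because reads could be split between them, their sum differed by 0.10 on the log2 scale (SE of 0.10, limma adjusted p = 0.632).

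PIP2F, a mostly root-expressed water and hydrogen peroxide channel, had 3550 and 3009 normalized counts in bamboo, against 3240, 3357 and 3166 in Col-0-b. It was highest in one bamboo library and lowest in the other, with a log2 difference of 0.01 and an SE of 0.08 (limma adjusted p = 0.977). PIP3A, an isoform whose delivery to the plasma membrane depends on the syntaxins SYP61 and SYP121, had 16835 and 14955 in bamboo, against 17294, 16799 and 17387 in Col-0-b. It was the member with the lowest fold change: bamboo replicate 3 lay below all wild types and replicate 2 was near their lowest library. The log2 difference was -0.11 (95% interval -0.28 to 0.06, limma adjusted p = 0.490), and it was negative in each of the 11 alternative settings. PIP3A depended on the scale: in CPM it had 794 and 725 in bamboo, against 834, 803 and 839 in Col-0-b. Both bamboo libraries thus lay below all wild types, and they also did with TMM scaling over the 8 libraries. In CPM it was the 1 member below all Col-0-b libraries and 0 members lay above, where 17.2% of tested genes lay below and 16.8% above.

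**Figure D2:**
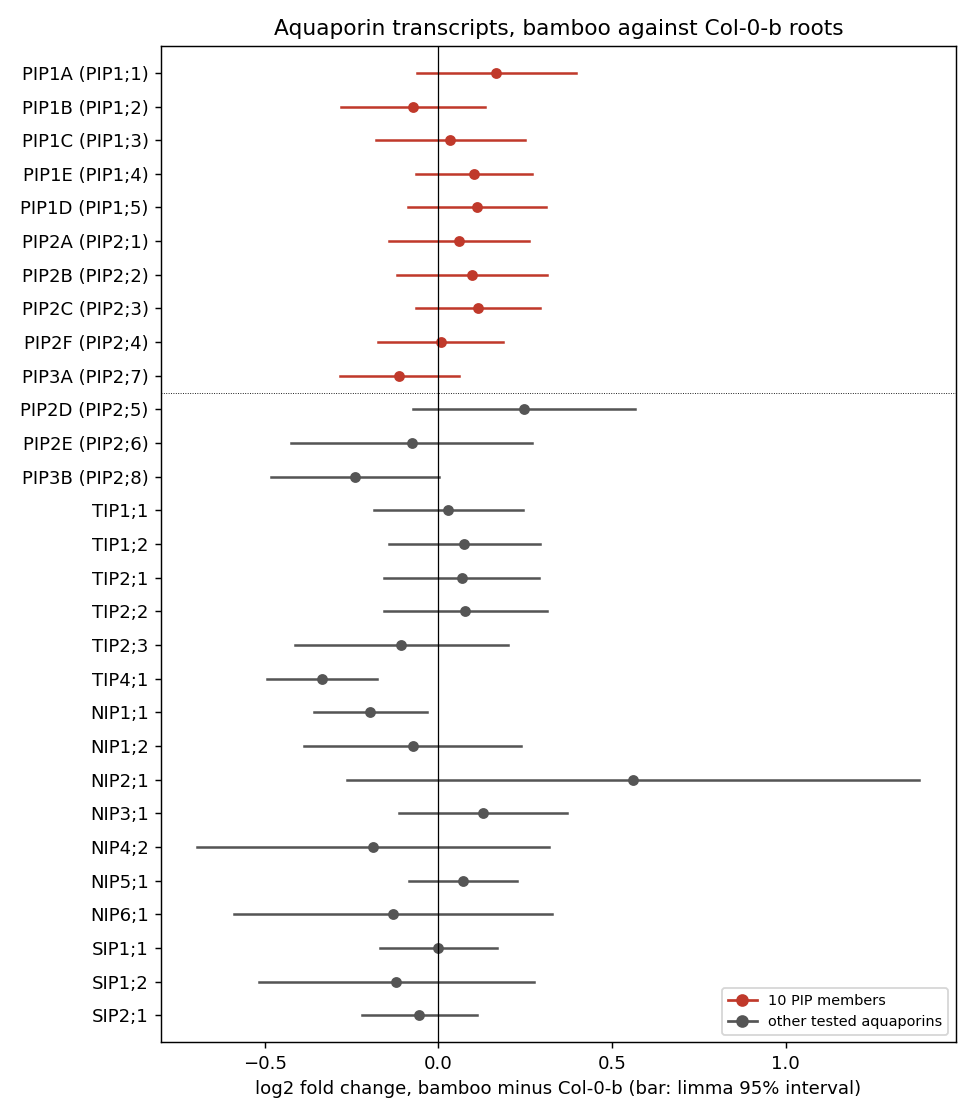
Log2 fold change of bamboo minus Col-0-b (x axis) with its limma 95% interval for the 10 PIP members (red, above the dotted line) and 19 other tested aquaporin genes (grey). Each of the 10 member intervals includes 0, and those of TIP4;1 and NIP1;1 do not.

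Between the bamboo libraries the members differed in 1 direction. All 10 were higher in bamboo replicate 2 than in replicate 3, by 1.12-fold (PIP1E) to 1.29-fold (PIP1A), and the median log2 difference was 0.27. Over all tested genes, 50.5% were higher in replicate 2 and the median difference was 0.00. Other aquaporins shared the shift: 16 of 19 tested were higher in replicate 2, with a median log2 difference of 0.22. The summed root markers were 387 and 389 CPM in the same libraries, those of stele and endodermis 433 and 435 CPM and those of shoot 108 and 116 CPM, against a PIP sum of 7997 and 6684 CPM. Single root markers differed both ways, by -0.73 (PLT1) to 0.48 (WOX5) on the log2 scale for replicate 2 minus replicate 3, and CASP1 alone gave 198 and 182 CPM of the root sum. CASP1 and MYB36 are in both the root list and the stele and endodermis list, so these sums are not independent. The part of these markers in the result was not tested. In Col-0-b the members were tight in normalized counts, with coefficients of variation from 1.84% (PIP3A) to 9.14% (PIP1D). The median was 3.39%, against 6.76% over all tested genes. That background includes genes near the filter of 10 normalized counts and was not matched to the members for read number.

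Divided by the summed reads of the 10 genes, which removes the shift shared by the family, some members were placed differently in bamboo. PIP3A took 9.93% and 10.9% of PIP reads in bamboo, against 11.4%, 11.5% and 11.6% in Col-0-b. PIP1B took 19.1% and 18.9% in bamboo, against 19.9%, 20.4% and 21.1% in Col-0-b. The shares of both genes were lower in each bamboo library than in all wild types.

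The opposite arrangement was seen for PIP1A, PIP2A and PIP2B. PIP1A took 12.3% and 11.8% in bamboo, against 11.3%, 10.4% and 11.2% in Col-0-b. PIP2A took 23.84% and 23.82% in bamboo, against 23.52%, 23.48% and 23.18% in Col-0-b. PIP2B took 14.59% and 13.95% in bamboo, against 13.46%, 13.55% and 13.93% in Col-0-b, so the nearest libraries differed little. On this scale 3 members thus lay above and 2 below all Col-0-b libraries, where 11% of tested genes lay above and 8.15% below. Dividing by the PIP sum takes the shift between the bamboo libraries out of the members and puts it into genes that lack it. In normalized counts 17.1% of tested genes lay above and 17.5% below. The lower percentages on this scale are therefore no like background for the members. Shares of 1 total depend on each other, the group means differed by at most 1.45 percentage points, and no test was made on them. The other 5 members overlapped, and PIP1 genes together took 46.8% and 46.3% of PIP reads in bamboo and 46.5% to 46.8% in Col-0-b.

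**Figure D3:**
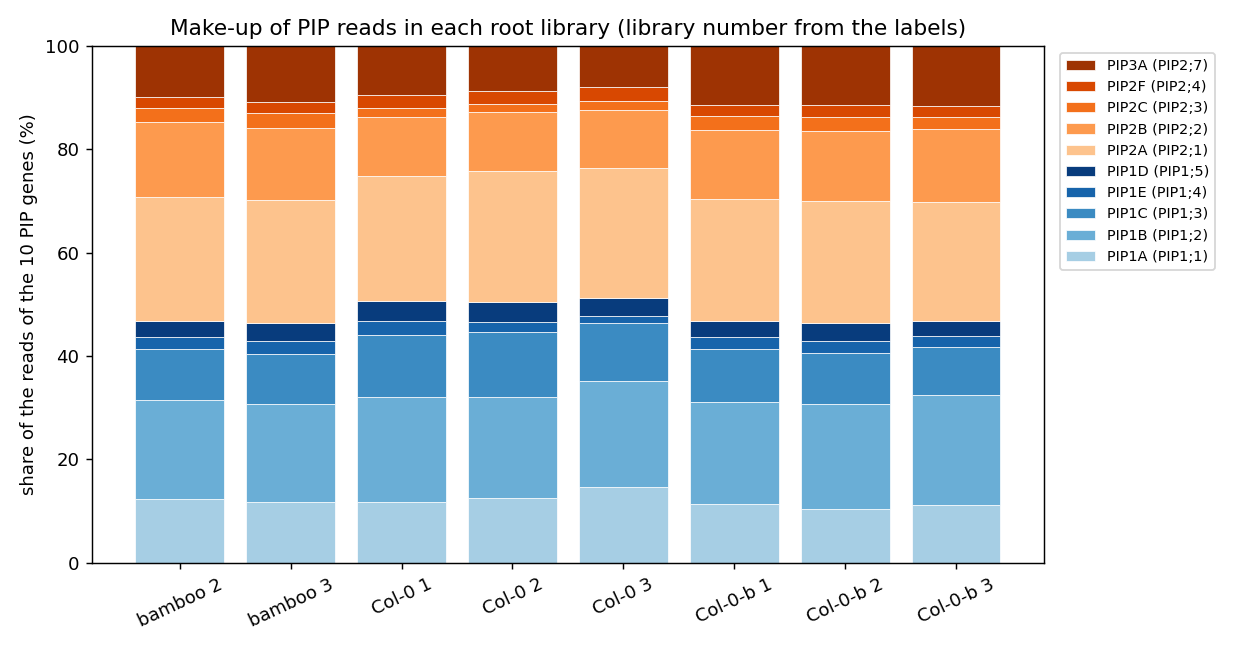
Share of the reads of the 10 PIP genes (y axis, percent) taken by each gene in each root library, with PIP1 genes in blue and PIP2 genes in orange. The PIP1 part ends at 46.3% to 46.8% in bamboo, at 50.4% to 51.3% in Col-0 and at 46.5% to 46.8% in Col-0-b.

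PIP levels were lower in Col-0 than in Col-0-b for several members. Raw reads of Col-0 came in a separate table, so the sets are placed side by side in CPM with no test. The 10 members summed to 4801, 5823 and 6225 CPM in Col-0, against 7320, 7008 and 7255 CPM in Col-0-b, and every Col-0 library was the lower. Other aquaporins showed the same: TIPs summed to 2574, 3482 and 3622 CPM in Col-0, against 4424, 4627 and 4591 CPM in Col-0-b, and 10 of 19 other tested aquaporins lay below all Col-0-b libraries and 1 above. In Col-0 6 members lay below all Col-0-b libraries (PIP1B, PIP1E, PIP2A, PIP2B, PIP2C and PIP3A) and 0 lay above, where 26% of tested genes lay below and 26.9% above. With TMM scaling over the 8 libraries the counts of members were also 6 and 0, against 28.2% and 25.2% of tested genes. The median log2 ratio of Col-0 over Col-0-b was -0.32 for the members and 0.01 over tested genes, and with TMM -0.35 and -0.02.

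The size of this gap varied by gene. PIP2C had 79.1, 86.5 and 99.2 CPM in Col-0, against 196, 193 and 181 CPM in Col-0-b, a ratio of means of 0.465. PIP3A had 454, 502 and 489 CPM in Col-0, against 834, 803 and 839 CPM in Col-0-b, a ratio of 0.584. PIP2B had 549, 665 and 705 CPM in Col-0, against 985, 950 and 1011 CPM in Col-0-b, a ratio of 0.651. These were the 3 lowest ratios, all of the PIP2 subgroup, and their groups did not overlap. Reads could be split between the near-identical PIP2B and PIP2C, so their separate ratios are uncertain and not independent. Their sum was not compared between these sets.

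PIP1E had a ratio of 0.686, PIP1B of 0.77 and PIP2A of 0.834. The other 4 members overlapped between the sets, with ratios of 0.907 for PIP1D, 0.928 for PIP1A, 0.947 for PIP1C and 0.966 for PIP2F. PIP1 genes took 50.6%, 50.4% and 51.3% of PIP reads in Col-0, above the 46.5% to 46.8% of Col-0-b. PIP2B reads stood to PIP2C reads at 5.39 and 4.85 in bamboo, at 6.94, 7.69 and 7.10 in Col-0 and at 5.03, 4.93 and 5.59 in Col-0-b. Shoot markers summed to 66 to 76.6 CPM in Col-0 and to 162, 87.7 and 77.6 CPM in Col-0-b replicates 1, 2 and 3. PSBO1 alone (ratio of means 1.00) gave 35.8, 39.7 and 38.3 CPM of the Col-0 sums. Of 7 tested shoot markers, 3 had every Col-0 library below all Col-0-b libraries (LHCB3, LHCA1 and PSAD1) and 0 above. Root markers summed to 366 to 394 CPM in Col-0 and 365 to 387 CPM in Col-0-b, but single ones differed both ways. MYB36 (ratio of means 1.77) and WER (1.48) had every Col-0 library above all Col-0-b libraries. RHD6 (0.725) and SCR (0.831) had every Col-0 library below them, and the other root markers overlapped. The part of these markers in the difference was not tested. Plant material, sequencing and table cannot be told apart between these sets.

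**Figure D4:**
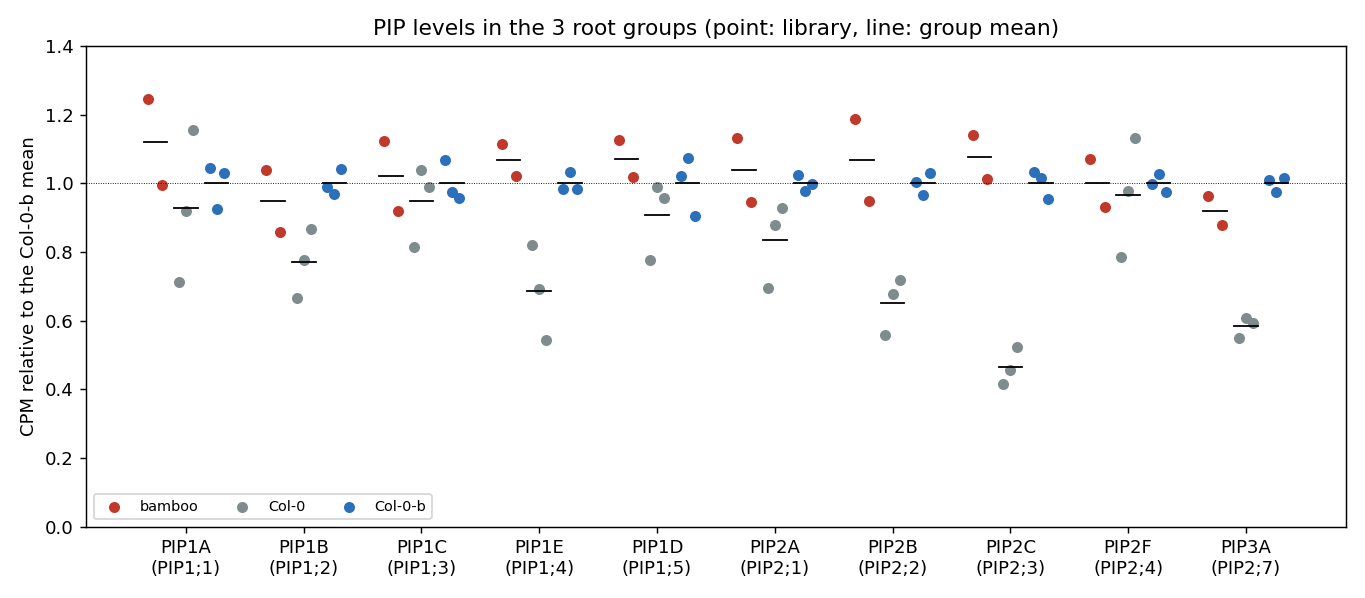
CPM of each PIP gene divided by its Col-0-b mean (y axis, from 0) in bamboo, Col-0 and Col-0-b libraries, with 1 point per library and a line at each group's mean. Col-0 points of PIP2C, PIP3A and PIP2B lie well below 1, while bamboo points lie on either side of 1 or above it for each gene but PIP3A, which is below.

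By mean CPM, 7 of the 10 members had the order bamboo, Col-0-b, Col-0, and PIP1B and PIP3A had Col-0-b first. For PIP2F the bamboo and Col-0-b means were 157 CPM each and Col-0 had 151 CPM. Bamboo and Col-0-b, neighbours in this order, overlapped for each member but PIP3A. Bamboo and Col-0 were separate, with every Col-0 library below both bamboo libraries, for 6 members: PIP1D, PIP1E, PIP2A, PIP2B, PIP2C and PIP3A. No member had every Col-0 library above both, where 25.3% of tested genes lay below and 28.6% above. In Col-0 the members' coefficients of variation, taken in CPM, ran from 5.23% (PIP3A) to 23.8% (PIP1A). The median was 12.8%, against 12.9% over all tested genes. In Col-0-b, taken in normalized counts, the medians were 3.39% for the members and 6.76% over all tested genes. Spread was thus wider in Col-0 for both, and the members started from the lower value. PIP1E had 134, 113 and 88.4 CPM in Col-0 replicates 1, 2 and 3, while PIP1A had 564, 726 and 913 CPM in the same libraries, so the library highest for one was lowest for the other.

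The remaining PIP2 genes contributed little. PIP2D (PIP2;5), PIP2E (PIP2;6) and PIP3B (PIP2;8) together had 23.8 to 33.8 CPM in any library, and the 10 members held 99.5% to 99.7% of all PIP reads. PIP2D had 121 and 119 normalized counts in bamboo, against 101, 106 and 96.3 in Col-0-b (log2 fold change 0.24, limma adjusted p = 0.415). PIP3B had 333 and 360 in bamboo, against 362, 455 and 417 in Col-0-b (log2 fold change -0.24, adjusted p = 0.301). PIP2E had 121 and 116 in bamboo, against 109, 147 and 123 in Col-0-b (log2 fold change -0.08, adjusted p = 0.848). The bamboo libraries of PIP2D lay above and those of PIP3B below all wild types, and neither passed the threshold.

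Many other aquaporins act in other membranes, such as that of the vacuole. Of 25 other aquaporin genes, among them PIP2D, PIP2E and PIP3B, 19 passed the filter on low values. Fold changes were positive for 8 and negative for 11, with a median of -0.06. None was called by limma or edgeR, and 2 had an unadjusted limma p under 0.05, where 16.8% of all tested genes had one. The 3 most highly read were vacuolar channels: TIP1;1 (log2 fold change 0.03), TIP1;2 (0.07) and TIP2;2 (0.08), with limma adjusted p from 0.745 to 0.914. TIPs were higher in bamboo replicate 2 than in replicate 3 in 5 of 6 tested genes, and their sums were 5132 and 4194 CPM. Over all 35 aquaporin genes the 10 PIPs took 58.8% and 58.9% of reads in bamboo, 59.7% to 60.9% in Col-0 and 57.7% to 59.9% in Col-0-b.

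TIP4;1, a tonoplast channel, came nearest to a call. It had 1867 and 1910 normalized counts in bamboo, against 2300, 2337 and 2513 in Col-0-b, and both bamboo libraries were below all wild types. Bamboo minus Col-0-b was -0.33 on the log2 scale with an SE of 0.07 (limma adjusted p = 0.088). It passed with DESeq2 (adjusted p = 0.019) and with the replicate number as a block in limma (-0.36, adjusted p = 0.017). These settings called 2.02% and 4.4% of all genes, against 0.133% in the main test, and the numbers were not taken to pair libraries. The difference was -0.32 without bamboo replicate 2 and -0.35 without bamboo replicate 3. NIP1;1, a nodulin-26-like channel, had 2091 and 2026 in bamboo, against 2209, 2421 and 2452 in Col-0-b (log2 fold change -0.20, adjusted p = 0.227). TIP4;1 and NIP1;1 were the 2 genes with an unadjusted p under 0.05 and were singled out after their values were seen.

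Proteins that act on PIPs were taken as a list of 12 genes, all tested: syntaxins that deliver them, RMA ubiquitin ligases, the PIP-binding TSPO, kinases that regulate PIPs or their abundance, and regulators of root water transport. None was called by limma, and 2 were higher and 1 lower at an unadjusted p under 0.05, which 16.8% of tested genes reached. The median log2 fold change was 0.16, with 9 positive and 3 negative values. SIRK1, a receptor kinase that activates PIP2 channels after sucrose supply, had 864 and 932 normalized counts in bamboo, against 1052, 1085 and 1251 in Col-0-b (log2 fold change -0.33, SE 0.09, limma adjusted p = 0.131). It passed the threshold with the replicate number as a block in limma (-0.38, adjusted p = 0.022), a setting that called 4.4% of all genes. The difference was -0.27 without bamboo replicate 2 and -0.38 without bamboo replicate 3.

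RMA2, a ligase of the endoplasmic reticulum membrane, had 171 and 129 in bamboo, against 136, 107 and 122 in Col-0-b (log2 fold change 0.29, SE 0.17, limma adjusted p = 0.395), with overlapping groups. The syntaxin SYP61 had 638 and 586 in bamboo, against 511, 483 and 559 in Col-0-b (log2 fold change 0.24, adjusted p = 0.227). SYP121 had 1294 and 1054 in bamboo, against 1034, 977 and 921 in Col-0-b (log2 fold change 0.26, limma adjusted p = 0.215). Its fold change was 0.11 without bamboo replicate 2 and 0.41 without bamboo replicate 3. Of the 12 genes, 5 lay above all Col-0-b libraries in both bamboo libraries (SYP61, SYP121, RMA1, CPK7 and HRA1) and 2 below (SIRK1 and QSK1), where 17.1% of tested genes lay above and 17.5% below. The genes of this list other than SIRK1 and RMA2 were named after their values were seen.

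The profile shared by the members was described over the 8 libraries as log2(CPM + 1) centred within each table and averaged over the 10 genes. Against the mean of the other 9 members, PIP2A followed most closely (Pearson r = 0.99) and then PIP2B (0.96), while PIP1E ran against it (-0.63) and PIP3A followed weakly (0.49). PIP1E fell over Col-0 replicates 1, 2 and 3 (134, 113 and 88.4 CPM), where the mean profile rose. Between bamboo replicates 2 and 3 it moved with the other members (181 and 166 CPM). The 5 other genes most like the members were PRA1.E (r = 0.99), AT3G10815 (0.99), AT2G43610 (0.98), NUDT4 (0.98) and AT1G78850 (0.98), out of 20274. Centring removes the gap between Col-0 and Col-0-b, so this likeness does not cover it. NUDT4 was higher in Col-0 (3.02, 4.05 and 4.15) than in Col-0-b (2.34, 2.02 and 2.19, log2(CPM + 1)), opposite to the members. PRA1.E, AT2G43610 and AT1G78850 were lower in each Col-0 library, and AT3G10815 overlapped. PRA1.E belongs to the prenylated Rab acceptor family and NUDT4 to the Nudix hydrolases. None of the 5 was called in bamboo (log2 fold changes 0.04 to 0.19, limma adjusted p from 0.639 to 0.885). With 8 points that share libraries and depth, such values describe these libraries only.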

How the data were processed

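Per the labels' protocols, RNA libraries were stranded and sequenced from one end. The submitters' processing notes list Trimmomatic, STAR (2.7.2a), featureCounts, Subread (1.6.5) and the build TAIR10; strand setting: not given in the sources used here. Raw counts are what the authors deposited for Col-0. The bamboo table holds what the authors deposited as a signal: reads per gene over a size factor of each library, whose making is not stated. All its values were whole multiples of a step within 0.01, which gave back reads. The raw table held 6 more columns whose names do not settle their line; these, and 9 of the 17 samples, were not analysed here.

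A gene was tested if 2 or more libraries reached 10 normalized counts, with limma 3.58.1 (R 4.3.3, trended, robust, group only) on log2(normalized count + 1), a scale that understates changes of low genes. The test was tried on simulated data first. Alternatives included edgeR 4.0.16 and DESeq2 1.42.0. Members, lists and tests were chosen with earlier results of these data known. Named were the 10 members, the other PIP2 genes, the 3 most highly read other aquaporins, the 2 largest changes among regulators, called list members and the 5 most alike profiles. Symbols came from RefSeq (TAIR10.1, 37051 of 37336 features), and its coordinates were used only to see which genes are neighbours or overlap. Libraries of a group differed beyond sampling noise in each pair (chi-square per degree of freedom 5.8 to 22.8). Intervals of fold changes rest on the spread between libraries, and the counting error given covers counting only.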

Additional observations from a re-analysis of the deposited data

How the results depend on the processing

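No member was called under any alternative that kept all 5 libraries (other pseudocount, filter, scaling, tool or replicate block). With 1 library left out 0 to 1 were called, the 1 being PIP1A without bamboo replicate 3. Signs near 0 depended on single libraries, mostly those of bamboo. With each library left out in turn, log2 fold changes ran from -0.016 to 0.35 for PIP1A, -0.23 to 0.086 for PIP1B, -0.13 to 0.20 for PIP1C, -0.092 to 0.21 for PIP2A, -0.086 to 0.28 for PIP2B, -0.11 to 0.13 for PIP2F, -0.18 to 0.037 for PIP2E, -0.13 to 0.19 for TIP1;1, -0.088 to 0.24 for TIP1;2 and -0.10 to 0.25 for TIP2;2. The lowest value came without bamboo replicate 2 and the highest without bamboo replicate 3, except for PIP2E, where they came without Col-0-b replicates 1 and 2. Leaving out wild-type libraries also turned PIP2F (-0.013 without Col-0-b replicate 3) and TIP1;1 (-0.0051 without Col-0-b replicate 1). With the replicate block TIP1;1 was at -0.0051. Over all genes 27 were called; the count was 75 with no filter on low values, 307 with DESeq2, 892 with the replicate block and 10 to 1946 with 1 library left out (10 without Col-0-b replicate 1, 12 without Col-0-b replicate 3, 1946 without bamboo replicate 3). Other aquaporins called were 1 (TIP4;1) with DESeq2, with the replicate block and without bamboo replicate 3, and 0 otherwise. Where 1 bamboo library is left, it is assumed to vary like the wild types. The differences between replicates 2 and 3 of bamboo and those of Col-0-b correlated at 0.079 across genes, so the numbers were not taken to pair libraries. Levels divided by length were not run. The cause of these changes was not tested.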
